A study of Mus musculus with 6 samples.

Results

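Mitochondrial ribosomal proteins are the proteins of the ribosome that works inside mitochondria. The genes were taken by symbol, as all those whose name in the array's annotation begins with Mrpl (large subunit) or Mrps (small subunit) followed by a number, with every probe of each. This gave 76 genes, 48 of the large and 28 of the small subunit, of 19057 genes that had a probe with 1 symbol. They were represented by 132 of the array's 45281 probes. Expression was measured in colon tumors of 3 Chrm3-/- and 3 WT mice, with 1 array per mouse. Chrm3 encodes the M3 muscarinic receptor (M3R), and Chrm3-/- mice lack it in every tissue. Both genotypes were on the mixed 129S6/SvEvTac X CF1 background and were 7 months old by the labels, which is older than the treatment schedule in the methods gives, and by the methods all were male and had received azoxymethane (AOM), which induces colon tumors in rodents. No untreated colon was among the 6 samples, so the arrays compare tumors with tumors.

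The mitochondrial ribosome translates the few mRNAs of the mitochondrial genome, which encode core subunits of the respiratory chain and of ATP synthase. Its RNAs are made in the mitochondrion, while all of its proteins are encoded in the nucleus, made in the cytosol and imported. The small subunit binds the mRNA and reads its codons, and the large subunit joins the amino acids and feeds the new chain to the inner membrane. Many of these proteins have counterparts in bacterial ribosomes and others are found only in mitochondria. The colonic epithelium depends on mitochondria to oxidize butyrate, its main fuel.

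Promoter sequences were taken from RefSeq (GRCm38.p6), as windows that reached from 250 bases before to 50 bases after a gene's start. A promoter was found for 67 of the 76 genes, with 73 promoters in all. Short sequences bound by factors known to act on nuclear genes for mitochondrial proteins were searched for on both strands. GCATGCGC, the core of the site of NRF1 (nuclear respiratory factor), was present in 8 of the 73 promoters (11%), against 2.71% of all 32851 promoters of the same length. CCGGAAG, the core recognized by ETS factors such as GABP, was present in 26 (35.6%), against 8.86% of all promoters. AAGATGGC, a core of the YY1 site, was present in 12 (16.4%), against 2.75%. TATAAA, which is found at TATA boxes, was present in 5 (6.85%), against 13.6%. No match of one motif overlapped a match of another in these promoters, and 35 of the 73 had none of the NRF1, ETS and YY1 cores. NRF1 cores were found in 7 of 47 large-subunit and 1 of 26 small-subunit promoters. The shares went the other way for ETS cores (15 of 47 and 11 of 26) and YY1 cores (6 of 47 and 6 of 26). A match is only a description of letters, and binding was not measured.

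The 150 bases before the start are given for Mrpl10, Mrpl27 and Mrpl47, the genes with the highest fold changes of the large subunit, and for Mrps11, which led the small subunit. Capitals mark the NRF1 core in Mrpl10, the ETS core in Mrpl27 and the reverse complement of the YY1 core in Mrps11, and the Mrpl47 stretch held none of the motifs searched. The stretches lie at chr11:97041432-97041581 on the plus strand (Mrpl10), chr11:94653641-94653790 on the plus strand (Mrpl27), chr3:32736756-32736905 on the minus strand (Mrpl47) and chr7:78782981-78783130 on the plus strand (Mrps11).
Mrpl10: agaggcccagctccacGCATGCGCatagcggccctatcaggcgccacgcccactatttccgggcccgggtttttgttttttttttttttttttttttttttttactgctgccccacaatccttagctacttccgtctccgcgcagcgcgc
Mrpl27: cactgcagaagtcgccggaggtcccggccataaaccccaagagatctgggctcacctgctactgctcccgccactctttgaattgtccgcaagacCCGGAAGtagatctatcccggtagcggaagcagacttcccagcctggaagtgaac
Mrpl47: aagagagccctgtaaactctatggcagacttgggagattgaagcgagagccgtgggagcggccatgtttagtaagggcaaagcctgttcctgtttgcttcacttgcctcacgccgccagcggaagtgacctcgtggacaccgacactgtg
Mrps11: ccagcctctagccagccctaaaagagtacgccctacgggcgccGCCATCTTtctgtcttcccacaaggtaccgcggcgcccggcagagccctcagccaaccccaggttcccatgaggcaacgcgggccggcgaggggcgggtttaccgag
The genes with the highest fold changes thus did not share a motif among those searched.

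Values are the deposited normalized intensities, on a linear scale and without unit, given per array as replicates 1 to 3. Fold changes are on the scale of log2(intensity + 50), with Chrm3-/- over WT, and the offset of 50 makes the changes of dim probes smaller than they were. An intensity under 2 was not above background. The brighter probes, those not below the array's median in mean log2 intensity, were tested with limma, 22641 in all, with p-values adjusted over all of them by the method of Benjamini and Hochberg at a threshold of 0.05. Of the 132 Mrpl and Mrps probes, 113 from 73 genes were tested, 70 of the large and 43 of the small subunit. The filter used the mean over all 6 arrays.

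Chrm3-/- replicate 1 stood apart from the other tumors, with correlations of 0.916 to 0.950 over all 45281 probes of the array. All other pairs of arrays had correlations of 0.970 to 0.986. The summed intensity of 9 smooth muscle marker genes was 42247 on that array, against 11027 and 16271 on the other Chrm3-/- arrays and 8379 to 13463 in WT tumors, and none of the 9 was at background throughout. The 10 epithelial markers were all measured, with sums of 29364 to 39046 in Chrm3-/- and 26819 to 34012 in WT tumors. The 7 immune markers with a probe summed to 2541 to 12902 in Chrm3-/- and 4032 to 5962 in WT tumors. The 8 fibroblast markers summed to 10119 to 11971 in Chrm3-/- tumors, below the 13426 to 16839 of WT tumors without overlap. Each sum used the brightest probe per gene, so the most intense genes weigh most. Of 18 tested fibroblast probes, 14 had a log2 fold change below 0 and 4 above, from -1.52 to 0.51. Whether tissue makeup differed, and had a part in the values below, was not tested. In whole tumors, fewer cells of a type and less RNA per cell cannot be told apart. The Chrm3 probe read 25.1, 32.1 and 21.9 in Chrm3-/- tumors, against 9.06, 1.80 and 1.93 in WT tumors. Whether this probe lies within the deletion is not known here, and it is no check of the genotype.

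As a group, the Mrpl and Mrps genes differed little between the genotypes. One of the 113 tested probes passed the adjusted threshold, a probe of Mrpl10 that was higher in Chrm3-/- tumors, and none passed as lower. Over all tested probes, 11 passed as higher (0.0486%) and 17 as lower (0.0751%), 28 in all (0.124%). The median log2 fold change was 0.00 for the 113 probes, with 58 above and 55 below 0, against 0.01 for all tested probes. The spread was also small. The median size of the log2 fold change, whatever its sign, was 0.09 for the 113 probes and 0.13 for all tested probes, and 109 of the 113 had a size under 0.5 (96.5%, against 91.8% of all tested probes). The median residual SD was 0.16 for these probes and 0.21 for all, so that they also varied less between tumors of 1 genotype.

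The large and small subunits gave nearly the same picture. The 70 Mrpl probes had a median log2 fold change of 0.00 with quartiles of -0.08 and 0.10, and 36 were above and 34 below 0. The 43 Mrps probes had a median of 0.01 with quartiles of -0.11 and 0.09, and 22 were above and 21 below 0. All tested probes had quartiles of -0.12 and 0.14. On single arrays, after each probe was centered on its mean over the 6 arrays, the Mrpl median minus the Mrps median was 0.0312, 0.0161 and 0.0447 in Chrm3-/- tumors, against -0.0247, -0.0171 and 0.0194 in WT tumors. The genotypes overlapped, since Chrm3-/- replicate 2 lay below WT replicate 3. On Chrm3-/- replicate 1, the array with high smooth muscle markers, the medians were -0.04 for Mrpl and -0.07 for Mrps, against -0.05 over all tested probes.

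**Figure D1:**
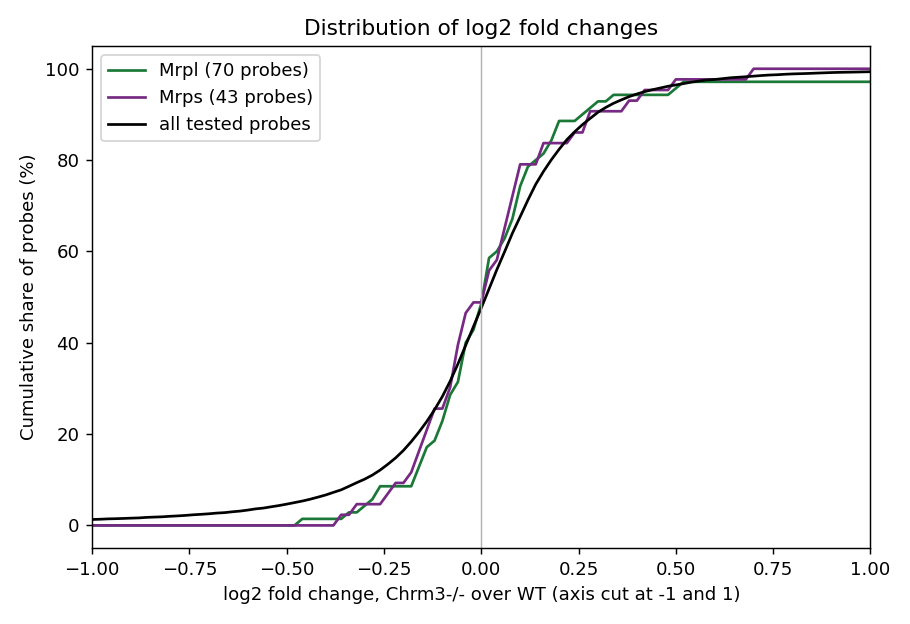
Cumulative share of probes (vertical axis, percent) with a log2 fold change of Chrm3-/- over WT up to the value on the horizontal axis, for 70 Mrpl probes, 43 Mrps probes and all 22641 tested probes. The Mrpl and Mrps curves lie close together, cross the middle near 0 and are steeper than that of all probes on the left side, and 2 Mrpl probes lie beyond the right edge.

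Counts at a looser threshold are given as a description. At an unadjusted p under 0.05, 7 of the 113 probes were higher (6.19%) and 1 was lower (0.885%) in Chrm3-/- tumors, where 2.01% and 2.81% of all tested probes were. The arrays of the genotypes did not overlap for 17 probes. Chrm3-/- was above WT for 10 of these (8.85%, against 5.2% of all tested probes) and below for 7 (6.19%, against 5.5%). In the large subunit 6 probes were above and 3 below, and in the small subunit 4 were above and 4 below. The study gives qPCR primers for Mrpl10, and it picked most of its qPCR genes by large changes on these same arrays. No qPCR value for Mrpl10 is given in its text. The share of Mrpl10 in these counts is therefore not taken as independent. Without it, 6 of 111 probes were higher at the unadjusted threshold and 1 was lower.

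**Figure D2:**
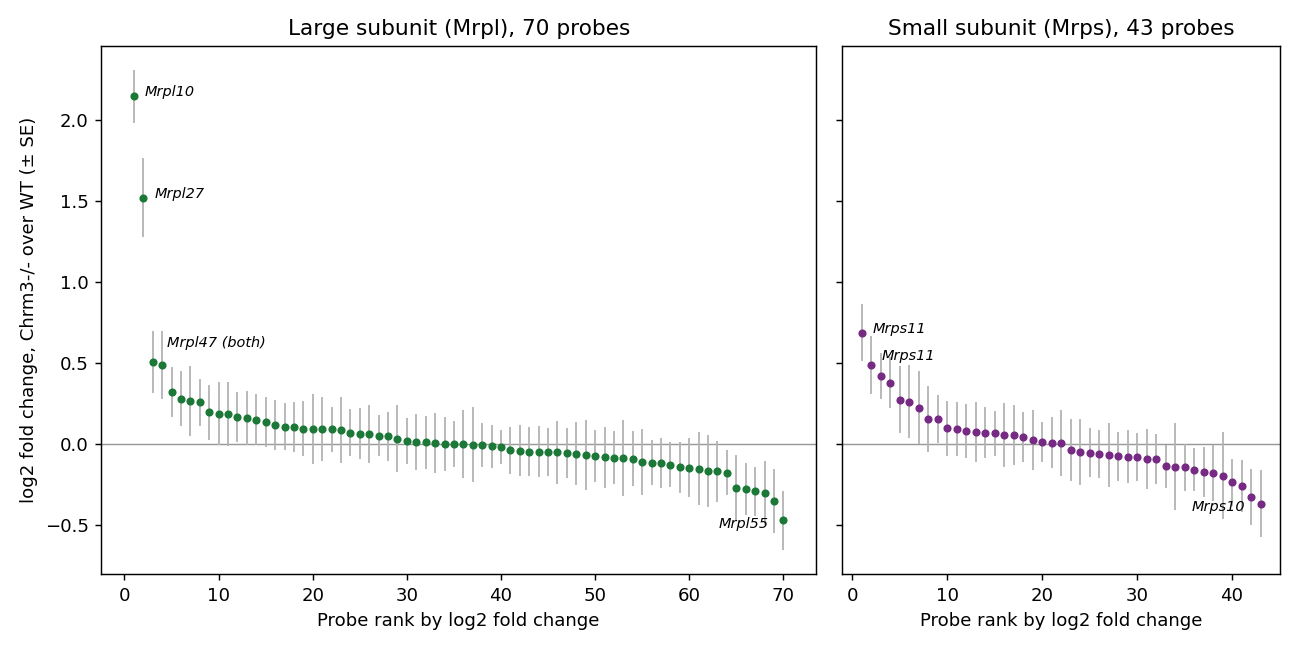
Log2 fold change of Chrm3-/- over WT for each tested probe (points, with SE as bars), ranked within the large subunit (left, 70 probes) and the small subunit (right, 43 probes). The first Mrpl10 probe at 2.14 and the Mrpl27 probe at 1.52 stand above the rest, and all others lie between -0.47 and 0.69.

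Mrpl10 belongs to the base of the stalk of the large subunit, the flexible arm that recruits translation factors, and it had 2 probes that behaved differently. The first (ILMN_2822622) read 1369, 1469 and 1648 in Chrm3-/- tumors, against 306, 263 and 330 in WT tumors. Each Chrm3-/- array was thus more than 4 times each WT array. The means were 1495 ± 141 in Chrm3-/- and 300 ± 34 in WT (SD, n = 3 each). The log2 fold change was 2.14 (SE 0.16, limma adjusted p = 0.0085), which was the 19th highest and had the 10th smallest p among all 22641 tested probes. The second (ILMN_2822621) read 1302, 1197 and 1838 in Chrm3-/- tumors, against 1842, 2017 and 1636 in WT tumors. Here the genotypes overlapped, and the log2 fold change was -0.35 (SE 0.20, adjusted p = 0.99). It was the second lowest of the large subunit, so the probes of 1 gene held both the highest and nearly the lowest place.

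On each array, the log2 value of the first probe minus that of the second was 0.07, 0.29 and -0.15 in Chrm3-/- tumors, against -2.41, -2.72 and -2.15 in WT tumors. The means were 0.07 ± 0.22 in Chrm3-/- and -2.43 ± 0.29 in WT (SD, n = 3 each), and they differed by 2.49. This is given as a description with no test. Mrpl10 is among the study's qPCR genes, most of which were picked by large changes on these arrays. As a ratio of intensities, the first probe was 1.06 ± 0.17 times the second in Chrm3-/- and 0.166 ± 0.036 times in WT (SD, n = 3 each). The signal of a probe depends on its own sequence, so it is the change of this ratio between genotypes, not its size, that can be read. Both probes are assigned to the same RefSeq transcript of Mrpl10, and their positions within it are not known here. Averaged over both probes, Mrpl10 had a log2 fold change of 0.90, which did not pass (adjusted p = 0.20).

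The call for the first Mrpl10 probe depended on which array was left out. It passed without Chrm3-/- replicate 1 (log2 fold change 2.2, adjusted p = 0.011) and without Chrm3-/- replicate 2 (2.15, adjusted p = 0.030). It did not pass without Chrm3-/- replicate 3 (2.07, adjusted p = 0.070), WT replicate 1 (2.16, adjusted p = 0.083), WT replicate 2 (2.07, adjusted p = 0.072) or WT replicate 3 (2.21, adjusted p = 0.075). The fold change itself thus moved little.

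**Figure D3:**
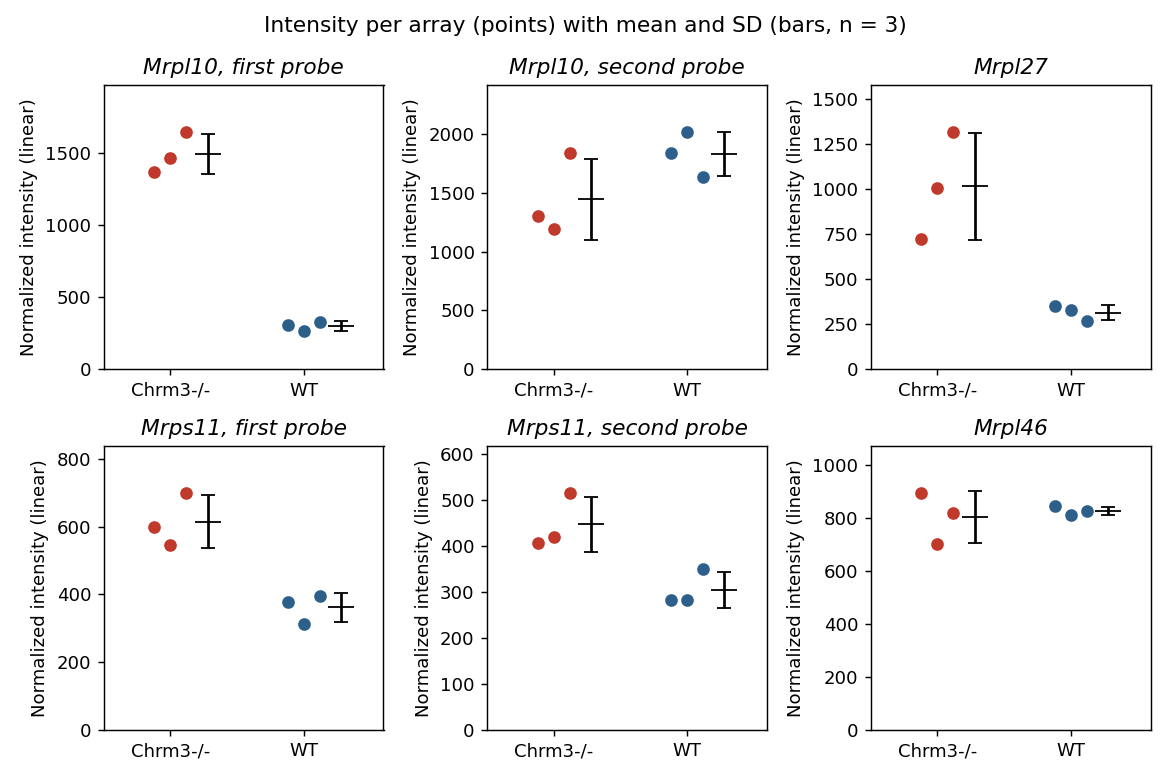
Normalized intensity (vertical axes, linear and starting at 0) on each array for both Mrpl10 probes, Mrpl27, both Mrps11 probes and Mrpl46, with Chrm3-/- on the left and WT on the right, points for replicates 1 to 3 and bars for the mean and SD. The genotypes do not overlap for the first Mrpl10 probe, Mrpl27 and Mrps11, and they overlap for the second Mrpl10 probe and Mrpl46.

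Other genes with more than 1 tested probe did not show such a split. There were 27 of them, and the range of log2 fold changes among the probes of a gene had a median of 0.14. For 23 genes it was under 0.3, and Mrpl10 alone was over 0.5. The next widest were Mrpl49, with a range of 0.40 over 4 probes, Mrps31 with 0.37 over 3, Mrpl15 with 0.31 over 6 and Mrps7 with 0.27 over 2. All tested probes of a gene lay on the same side of 0 in 14 of the 27. The 4 Mrpl49 probes had log2 fold changes of -0.14, 0.11, -0.08 and 0.26, and the last, which read 61.7, 70.3 and 70.5 in Chrm3-/- tumors against 53.5, 49.0 and 42.3 in WT tumors, did not overlap. The 6 Mrpl15 probes ran from -0.04 to 0.27, all with overlap.

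**Figure D4:**
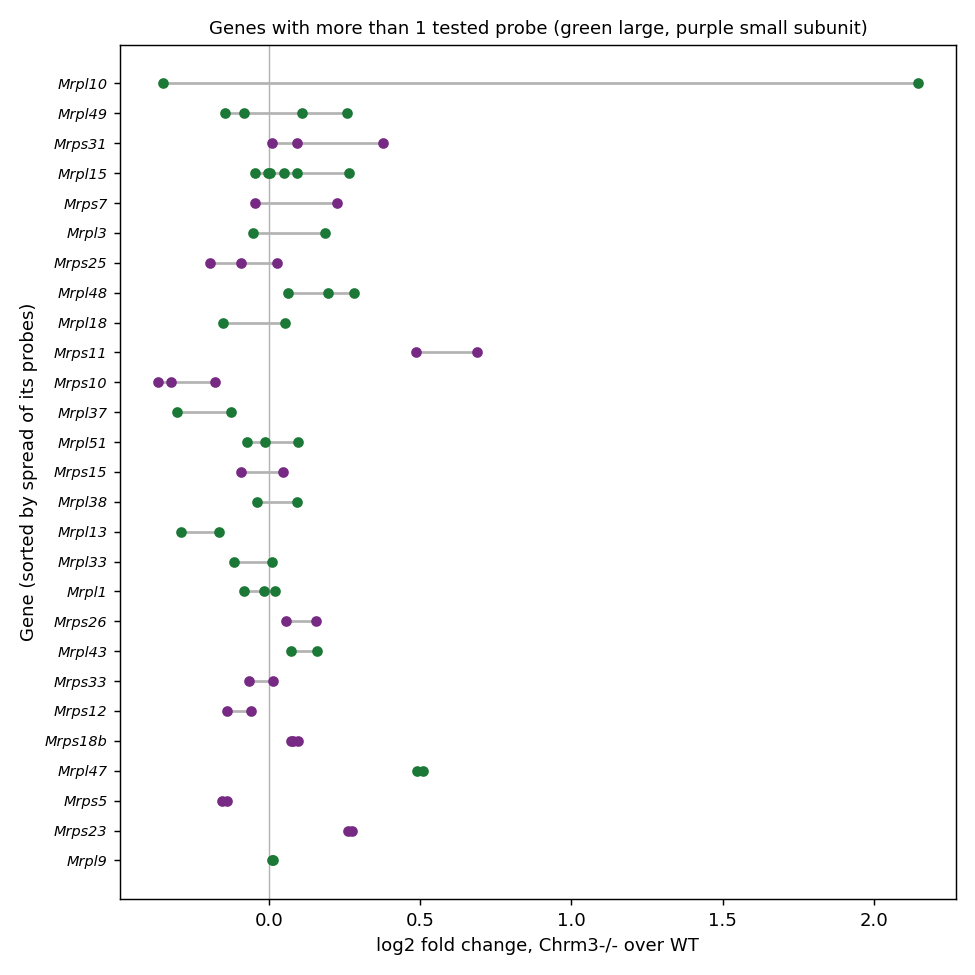
Log2 fold change of Chrm3-/- over WT (horizontal axis) of every tested probe of the 27 genes with more than 1 tested probe, 1 gene per row, with large-subunit genes in green and small-subunit genes in purple. The Mrpl10 probes are 2.49 apart, and the next widest gene, Mrpl49, spans 0.40.

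Mrpl27, whose bacterial counterpart reaches toward the peptidyl transferase center, had the second highest fold change. Its single probe read 723, 1006 and 1317 in Chrm3-/- tumors, against 348, 327 and 266 in WT tumors. The genotypes did not overlap, with means of 1015 ± 297 in Chrm3-/- and 314 ± 43 in WT (SD, n = 3 each). The log2 fold change of 1.52 (SE 0.24) did not pass (adjusted p = 0.14, unadjusted p = 0.00045). Replicate 1, the lowest of the Chrm3-/- arrays for this probe, was the array that stood apart, and without it the log2 fold change was 1.73 (adjusted p = 0.052). There is no other Mrpl27 probe to set beside it.

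Mrps11, a protein of the platform of the small subunit, had the highest values of its subunit with both of its probes. The first read 600, 545 and 700 in Chrm3-/- tumors, against 378, 314 and 395 in WT tumors (log2 fold change 0.69, SE 0.18, adjusted p = 0.60). The second read 408, 419 and 516 in Chrm3-/- tumors, against 282, 282 and 350 in WT tumors (log2 fold change 0.49, SE 0.18, adjusted p = 0.99). Neither passed, but neither overlapped, and Chrm3-/- replicate 3 was the highest with both. The promoter windows of Mrps11 and Mrpl46, a large-subunit gene on the other strand of chromosome 7, share 141 of their 300 bases. Mrpl46 read 893, 700 and 816 in Chrm3-/- tumors, against 843, 812 and 824 in WT tumors, and its log2 fold change was -0.04 (SE 0.16). Of these genes, which are read away from each other, the values of Mrps11 were separated by genotype and those of Mrpl46 overlapped.

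Mrpl47, which belongs to the rim of the exit of the peptide tunnel, had 2 tested probes with similar changes. One read 791, 670 and 961 in Chrm3-/- tumors, against 536, 485 and 627 in WT tumors, without overlap (log2 fold change 0.51, SE 0.19). The other read 126, 70.9 and 119 in Chrm3-/- tumors, against 55.7, 50.5 and 72.1 in WT tumors, where Chrm3-/- replicate 2 lay below WT replicate 3 (log2 fold change 0.49, SE 0.21). Neither passed (adjusted p = 0.99 for both). The other Mrpl47 probes, 2 in number, were under 2 on all 6 arrays.

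Some other genes of the large subunit were separated by genotype without passing (adjusted p of 0.99 or above for each). Mrpl20, whose bacterial counterpart is an early assembly protein, read 1605, 1353 and 1590 in Chrm3-/- tumors, against 1326, 1073 and 1211 in WT tumors (log2 fold change 0.32). One of 3 tested Mrpl48 probes did not overlap (0.28), and the other 2 did (0.07 and 0.20). Mrpl55, which has no bacterial counterpart, was lowest, with 238, 263 and 189 in Chrm3-/- tumors, against 347, 362 and 298 in WT tumors (log2 fold change -0.47, SE 0.18, unadjusted p = 0.038, adjusted p = 0.99). One Mrpl13 probe read 2213, 2040 and 2438 in Chrm3-/- tumors, against 3120, 2495 and 2621 in WT tumors (-0.29), and the other overlapped (-0.16). Mrpl21 had a log2 fold change of -0.17 without overlap. Mrpl37 (-0.30 and -0.13) and Mrpl17 (-0.28) were among the lowest with overlap.

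In the small subunit, Mrps9, a protein of the subunit's head, read 851, 767 and 763 in Chrm3-/- tumors, against 577, 586 and 576 in WT tumors. The WT arrays lay close together and all Chrm3-/- arrays above them, and the log2 fold change was 0.42 (SE 0.14, unadjusted p = 0.023, adjusted p = 0.93). One of 3 tested Mrps31 probes read 1235, 1215 and 995 in Chrm3-/- tumors, against 933, 847 and 826 in WT tumors (0.38), while the other 2 were at 0.01 and 0.09 with overlap. Both Mrps23 probes were high on Chrm3-/- replicate 3 and overlapped (0.28 and 0.26). Mrps10, also of the head, lay below 0 with all 3 tested probes (-0.37, -0.32 and -0.18). The one in the middle read 721, 951 and 901 in Chrm3-/- tumors, against 1210, 1087 and 956 in WT tumors, and the first also did not overlap. Mrps17 (-0.23) and Mrps35 (-0.14) did not overlap, and Mrps21 (-0.26) and 1 of 3 Mrps25 probes (-0.19) overlapped. Apart from Mrps9, each of these probes had an adjusted p of 0.99 or above, and none passed. The fourth Mrps25 probe on the array, the one at -0.19, was low only on Chrm3-/- replicate 1 (51.3, against 119 and 118 on the others), and without that array its log2 fold change was 0.05.

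The probes with the highest intensities differed little. Mrpl33 read 2793, 3639 and 4210 in Chrm3-/- tumors, against 3445, 3163 and 3851 in WT tumors with one probe (log2 fold change 0.01), and the other was at -0.11. Mrpl52 was at -0.14 and Mrpl36 at -0.05. Mrps24 read 4780, 4790 and 4396 in Chrm3-/- tumors, against 3975, 4328 and 5082 in WT tumors (0.07). Mrps33 was at 0.01 and -0.06. Mrps12, a protein of the decoding center, was at -0.06 and -0.14. Mrpl12, which forms the mobile part of the stalk and binds Mrpl10, read 2377, 1482 and 2388 in Chrm3-/- tumors, against 1985, 2030 and 2081 in WT tumors (0.00, SE 0.21). These values do not show that the levels were equal.

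A further 19 probes were too dim to be tested, with no value over 14.2, and 12 of them were under 2 on all 6 arrays. Mrpl19, Mrpl32 and Mrps14 had no tested probe, so nothing can be said of them. Dim second probes occurred beside measured ones for Mrpl3, Mrpl13, Mrpl15, Mrpl20, Mrpl21, Mrpl48, Mrps9, Mrps10, Mrps22, Mrps25 and Mrps31, as for Mrpl47. These dim probes show that 1 probe at background does not mean that the gene was silent. Mrpl45 also had a dim second probe, but its tested probe was itself near background. It read 21.7, 3.10 and 12.3 in Chrm3-/- tumors, against 13.8, 9.23 and 1.78 in WT tumors. Among the tested probes, 111 of 113 were over 2 on every array.

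Mrpl10 and Mrpl27 both lie on chromosome 11, which holds 11 of the genes with tested probes. Its 15 probes had a median log2 fold change of 0.09 and ran from -0.47 (Mrpl55) to 2.14 (Mrpl10), and 10 were above 0. Genes next to Mrpl10 were dim. Lrrc46 read 1.99, 17.1 and 11.5 in Chrm3-/- tumors, against 1.65, 1.92 and 3.68 in WT tumors (0.19), and Osbpl7 was at 0.11 and -0.00. Beside Mrpl27, Xylt2 was at -0.01. On chromosome 13, where Chrm3 lies, Mrpl36, Mrps27 and Mrps30 were at -0.05, -0.04 and 0.07. The chromosomes were taken from RefSeq by gene identifier, which all 132 probes matched.

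Other genes of mitochondrial protein synthesis were read from lists by role, and no probe of any list passed the adjusted threshold. Proteins of the mitochondrial ribosome that carry other names had 4 genes with 8 tested probes. All 8 were below 0, as were 10779 of all 22641 tested probes, with a median log2 fold change of -0.10. Dap3 and Gadd45gip1 each had more than 1 of these probes, so the 8 are not separate genes. Chchd1 was lowest (-0.22). The next smallest p belonged to a Gadd45gip1 probe near background (-0.10), with 5.32, 7.56 and 4.34 in Chrm3-/- tumors, against 18.4, 10.2 and 1.81 in WT tumors. All 8 overlapped, where 10.7% of all tested probes did not. With an unadjusted p under 0.05 there were 0, against 4.82% of all tested probes, and 8 probes are too few to read these counts as a result. Mitochondrial translation factors had 13 genes with 26 probes and a median of 0.04. At an unadjusted p under 0.05 there were 3 higher (11.5%, against 2.01% of all tested probes) and 2 lower (7.69%, against 2.81%). The genotypes did not overlap for 5 as higher (19.2%, against 5.2%) and 2 as lower (7.69%, against 5.5%). Mtif3, an initiation factor, read 263, 103 and 196 in Chrm3-/- tumors, against 57.2, 48.3 and 59.5 in WT tumors with one probe (log2 fold change 1.12, SE 0.28, adjusted p = 0.57). With the other it read 91.2, 53.3 and 82.2 in Chrm3-/- tumors, against 39.8, 42.3 and 40.1 in WT tumors (0.46, adjusted p = 0.99), so both probes were separated by genotype. Mtif2, the other initiation factor, read 60.5, 90.9 and 8.74 in Chrm3-/- tumors, against 147, 156 and 167 in WT tumors with one probe (-1.09, adjusted p = 0.84). Its other 3 probes were at -0.60, -0.17 and -0.10 and overlapped. The initiation factors thus lay on opposite sides of 0, and neither passed.

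Mitochondrial tRNA synthetases, which load tRNAs with amino acids, had 14 genes with 22 tested probes and a median of -0.10. At an unadjusted p under 0.05, 0 were higher and 2 lower (9.09% lower, against 2.81% of all tested probes). The genotypes did not overlap for 3 as higher and 3 as lower (13.6% each, against 5.2% and 5.5%). Wars2, for tryptophan, read 12.03, 16.5 and 12.2 in Chrm3-/- tumors, against 74.4, 66.0 and 96.8 in WT tumors with one probe (-1.02, SE 0.15, adjusted p = 0.11). The other Wars2 probe was near background (0.14, with overlap). Iars2, for isoleucine, read 369, 292 and 335 in Chrm3-/- tumors, against 482, 571 and 676 in WT tumors (-0.71, adjusted p = 0.68), and its other probe was also below WT without overlap (-0.34). Assembly factors had 21 genes with 32 probes and a median of 0.01, with none past an unadjusted p of 0.05 (4.82% of all tested probes were). The smallest p values belonged to Mrm1, an rRNA methyltransferase (0.45), and Mtg1, a GTPase (-0.29). Genes for the transcription and upkeep of mitochondrial DNA had 12 genes with 22 probes and a median of 0.03. Polrmt, the mitochondrial RNA polymerase, was at 0.30 and 1 of 2 Mterf1b probes at -0.46. None of the 22 had an unadjusted p under 0.05, where 4.82% of all tested probes did. All 22 overlapped, where 10.7% of all tested probes did not. With so few probes, these counts are no result about the genes.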

How the data were processed

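Tumor RNA of 3 Chrm3-/- and 3 WT mice was hybridized to Illumina MouseWG-6 v2.2 BeadChips, and groups follow the labels. The intensity of each probe was deposited on a linear scale after cubic spline normalization by the authors, by the methods with no background subtracted. The 6 arrays share a single set of values, ordered differently on each. On each array 46.1% of the values were under 2. Which step produced these features was not tested. A second table with 6 columns whose names match no sample was not used. Intensities were taken as log2(value + 50) and probes with a mean at or above the median were fitted in limma 3.58.1 (R 4.3.3) by lmFit and eBayes with a trend, genotype being the only term, with 4 residual and 2.87 prior degrees of freedom. The p-values are two-sided. Standard errors of log2 fold changes had a median of 0.19, and 3 arrays per genotype limit the precision. Tables were made in Python 3.11.15 with pandas 2.3.3, numpy 2.4.6 and scipy 1.17.1, and plots with matplotlib 3.10.9.

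Probes were named by the platform annotation, with 34885 probes of 1 symbol, 18 of several and 10378 not listed. Of 78 protein-coding genes of these names in the RefSeq table (GRCm38.p6), Mrpl41 and Mrps36 had no probe named here. The members and lists were chosen with earlier results of these data known. Named genes were Mrpl10, members with a probe that passed, the 5 highest, the 5 lowest and the 4 most intense probes of each subunit, the 5 genes whose probes differed most, genes with a probe under 2 on all arrays of a genotype beside another probe, and in each other list the 2 probes with the smallest p. Mrpl12, Mrpl46, chromosomal neighbors, further probes of the named genes, and Mrpl21, Mrpl48 and Mrps35, which did not overlap, were added after their values were seen. Mice are taken as 3 different animals per genotype, as the methods state. Alternatives were other offsets, filters, array weights, a replicate block, the methods' t-test, averaging probes by gene and leaving out each array.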

Additional observations from a re-analysis of the deposited data

How the results depend on the processing

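The count of 28 probes past the threshold over the whole array was 45 on plain log2 values, 12 with no filter, 252 with array weights, 9 by the methods' t-test with Benjamini-Hochberg adjustment, 15 with probes averaged per gene, and 4 to 31 when 1 array was left out. The count of 1 among Mrpl and Mrps probes was 3 with array weights (Mrpl10, Mrpl27 and the first Mrps11 probe), 0 by the methods' t-test, 0 with probes averaged per gene, and 0 to 1 when 1 array was left out, with 0 without Chrm3-/- replicate 3 and without each WT replicate. Array weights rested on unequal weights, 6.12 for Chrm3-/- replicate 3 against 0.256 and 0.386 for replicates 1 and 2. The median log2 fold change of Mrps probes was -0.0433 to 0.0292 when 1 array was left out. The fourth Mrps25 probe changed sign with array weights (0.0053), and ran from -0.318 to 0.052 when 1 array was left out, the highest without Chrm3-/- replicate 1. The first Mrpl10 probe stayed between 1.997 and 2.32 in log2 fold change, with adjusted p up to 0.16, and passed under 10 of 16 alternatives.

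Deviations of same-numbered tumors from their genotype's mean had correlations of -0.15, -0.03 and 0.02, and those of differently numbered tumors -0.14 to 0.15. No pairing by number was seen, but 3 arrays per genotype cannot settle whether the numbers pair the mice. With the replicate number as a block, 1 probe passed over the whole array and 0 of the Mrpl and Mrps probes. Of the settings for single probes, 373 kept direction and side of the threshold, 6 lost the call, 2 gained it and 2 changed sign, and the cause was not tested.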

Other observations

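Cytosolic ribosomal proteins, the Rpl and Rps genes, had 54 genes with 76 tested probes. Their median log2 fold change was 0.04, with 46 probes above 0, and none passed the adjusted threshold (limma). At an unadjusted p under 0.05, 8 were higher (10.5%, against 2.01% of all tested probes) and 1 was lower (1.32%, against 2.81%) in Chrm3-/- tumors. The highest were dim probes. Some of them were near background in WT tumors and passed the intensity filter through their Chrm3-/- values, and the count of higher probes includes them. One Rpl21 probe read 90.3, 96.1 and 66.3 in Chrm3-/- tumors, against 1.88, 10.4 and 17.0 in WT tumors (1.17, adjusted p = 0.098), and one of Rps13 read 34.3, 81.7 and 59.5 in Chrm3-/- tumors, against 2.43, 1.66 and 1.99 in WT tumors (1.04, adjusted p = 0.16). The lowest was a probe of Rpl13a, with 933, 2198 and 1143 in Chrm3-/- tumors, against 2155, 2200 and 2372 in WT tumors (-0.73, adjusted p = 0.99). These genes have many near-identical copies in the genome, so a probe may read more than 1 of them.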
